A study of Drosophila melanogaster with 249 samples.

Results

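The genes described here differed in Drosophila melanogaster heads between XY males and both XX females and XX flies transformed into males by tra2 mutations. They were selected on expression levels in lines heterozygous for a deletion of a segment of chromosome arm 3L, the Df(3L)/+ lines, from the median deposited normalized read count over the 33 libraries of each of XX females, XX transformed males (tra2 XX) and XY males. A gene was taken as XY-high when its XY median was at least 1.5 times both the XX and the tra2 XX median, and as XX-high when the XX and tra2 XX medians were both at least 1.5 times the XY median. The highest of the 3 medians had to exceed 20. In the table, 8646 genes exceeded that minimum, and 344 met the rule, with 60 XY-high and 284 XX-high. Which set was larger turned with the minimum, since without one there were 982 XY-high and 535 XX-high genes. The dosage compensation RNAs roX1 and roX2 also met it and were left out, as was brv3, which was left out by name. Because the Df(3L)/+ values chose the genes, those values are given as a description and carry no test. The XY males used in this choice carried no tra2 mutation. Karyotype and tra2 alleles therefore cannot be told apart between them and tra2 XX.

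Every library was made from poly-A+ RNA of 10 pooled heads of adults aged 5 d. The tra2 flies of both karyotypes carried the allele tra2B over the deficiency Df(2R)trix. The Df(3L)/+ XX females and XY males were sibs from mothers balanced over TM3 and w1118 fathers, whereas the Df(3L)/+ tra2 XX flies came from a cross of 3 generations, and there were 11 such lines. Libraries without a 3L or X deletion held 3 XX, 3 XY, 3 tra2 XX and 3 tra2 XY replicates in the w1118 background, 3 tra2 XX replicates that were w1118/w+, 2 XX replicates that were w1118/w+ and entered the fit but no comparison, and 3 XX and 3 XY replicates of OreR, a wild-type strain with red eyes. The w1118 XX and XY flies were the inbred stock itself, the w1118 tra2 XX flies came from their own cross with a marked Y chromosome in the father, and the w1118 tra2 XY and w1118/w+ tra2 XX flies were sibs, which differed in the white gene as well as in karyotype. A further 19 X chromosome deletions (Df(1)/+) gave XX and tra2 XX libraries only. The labels did not say whether replicates were separate cultures, so that p-values measure only the spread between these pools.

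Somatic sex in Drosophila is set by the number of X chromosomes through Sex-lethal (Sxl), which is active in XX flies. Sxl protein directs the splicing of transformer (tra), and Tra together with Tra2 directs the splicing of doublesex (dsx) and fruitless (fru), the regulators that drive most female and male differentiation. Sxl also represses msl-2, so that the Male-Specific Lethal complex with its roX RNAs assembles on the single X of males and raises its transcription. Loss of tra2 therefore removes the female branch that runs through dsx and fru and leaves the branch from Sxl to msl-2 and the number of X chromosomes as they were. The yolk proteins, made in fat body tissue of the female head under dsx, are a standard readout of the tra2 branch.

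The labels were checked against roX1 and yolk protein transcripts. The roX1 normalized read count was at most 1275 in the 193 libraries with a pair of X chromosomes. It was at least 2574 in the 42 XY libraries, so that no label was reversed by this measure. A pool that mixed XX and XY heads could still pass this check. Replicate 1 of w1118 tra2 XY stood apart. It had the lowest roX1 value of the XY libraries and a summed yolk protein count of 134180, against 421 and 374 in replicates 2 and 3, and it was left out of every fit unless stated. In the Df(3L)/+ lines, 4 XY and 2 tra2 XX libraries had a yolk protein sum above 5000, the highest being 153543 in replicate 2 of Df(3L)ED4421 XY. Without these 6 libraries the rule gave 54 XY-high and 292 XX-high genes, of which 53 and 273 were among the 60 and 284. Reads assigned to genes ranged from 667146 to 14473680 in the Df(3L)/+ libraries and from 6885572 to 16011623 in the libraries without a deletion. The Df(3L)/+ medians were 9123340 (XX), 5631335 (tra2 XX) and 9220883 (XY), and the library with 667146 reads was tra2 XX. Fewer cells of a type and less RNA per cell cannot be told apart in whole heads.

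The members' levels and folds are described first. The median of the higher level was 51.5 normalized reads for XY-high and 474 for XX-high genes. The fold difference, taken against the closer of the XX and tra2 XX medians, ranged from 1.504 to 3.30 with a median of 1.62 in the XY-high set, and from 1.5001 to 6.93 with a median of 1.71 in the XX-high set. It reached 2 in 9 XY-high and 67 XX-high genes. Both the XX and the tra2 XX median lay on the side of the XY median that the rule asks for in all 11 Df(3L)/+ lines for 46 XY-high and 197 XX-high genes. At the edge of the ratio, CR44644 and Dhc93AB entered the XY-high set at 1.504, whereas phyl at 1.499 and CG6362 at 1.497 did not. Acer at 1.5003 entered the XX-high set, and RpL26 at 1.499 and exu at 1.498 did not, so that membership near the limit rests on very small differences.

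The chromosomes of the members differed between the sets. Of 1422 X-linked genes above the minimum, 30 (2.11%) were XY-high, compared with 25 of 7009 autosomal genes (0.357%). The XX-high genes made up 57 of the X-linked genes (4.01%) and 220 of the autosomal ones (3.14%). Among the autosomes, 4 XY-high genes lay on 2L, 8 on 2R, 6 on 3L and 7 on 3R, and the XX-high genes numbered 56, 62, 39, 61 and 2 on 2L, 2R, 3L, 3R and 4. No gene of either set lay on Y or in the mitochondrial genome. The remaining 12 members had identifiers that were not in the BDGP6 annotation and were given no chromosome.

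**Figure D1:**
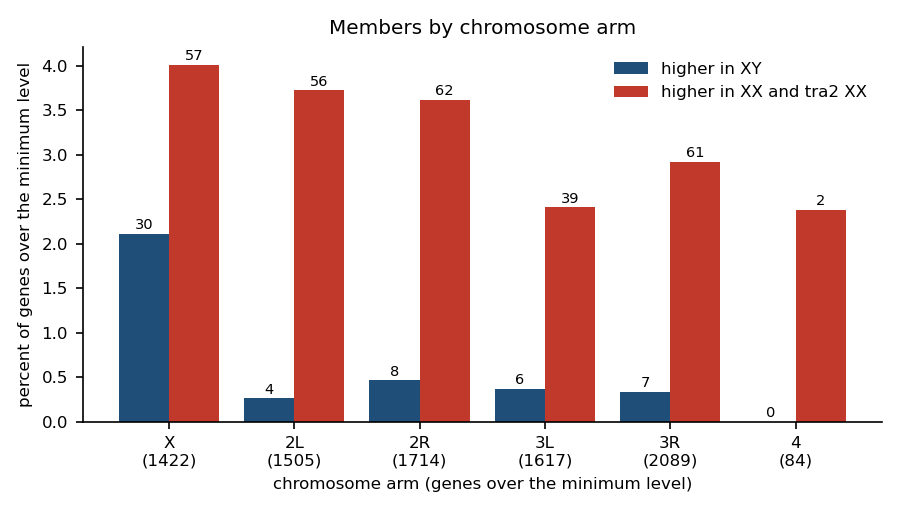
Share of the genes above the minimum on each chromosome arm, in percent, that were XY-high and XX-high in the Df(3L)/+ lines, with the number of member genes printed at each bar. The X carried 30 XY-high genes of 1422, or 2.11%, against 0.357% over the autosomes, and the XX-high share was 4.01% on X and 3.14% over the autosomes.

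Whether these differences held was asked in libraries that the rule did not use, by the quasi-likelihood test of edgeR, with p-values adjusted by the Benjamini-Hochberg method over 10202 genes, and a gene is said to have risen or fallen when its adjusted p was under 0.05. Comparisons of w1118 XX with XY, of tra2 XX with XY and of tra2 XY with XY share the XY libraries, and both comparisons of tra2 XX with tra2 XY share the tra2 XY libraries. The side-by-side counts are therefore not independent of each other. The comparison of OreR XX with XY shares no library with them.

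The XY-high set held its direction in part. In w1118, 18 of the 60 genes were lower in XX than in XY and none was higher, with a median log2 difference of -0.45, where 5.82% of all genes tested were lower and the median was -0.01. Without replicate 1 or 2 of w1118 XX, 11 and 10 of them were lower. In OreR, 22 of the 60 were lower (all genes 5.80%, median -0.61), and in tra2 XX against XY 23 were lower (all genes 7.85%, median -0.52). All w1118 XX libraries were under all XY libraries for 31 of the 60 genes, against 17.4% of all genes tested, and the same count in OreR was 31, against 13.4%.

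The stricter question is whether XX and XY still differed when both were tra2 mutant. With w1118 tra2 XX against tra2 XY replicates 2 and 3, 6 of 60 XY-high genes were lower in XX (all genes 0.382%), 27 had an unadjusted p under 0.05 in either direction, beside 2396 of all 10202 genes, and the median was -0.56. The 6 genes were CG6999, CG32706, Gcna, msl-2, CG4586 and FBgn0029128. Against the same tra2 XY libraries, their w1118/w+ tra2 XX sibs were lower for 16 of 60 (all genes 3.12%, median -0.64), and CG12655 was higher. These counts leaned on single libraries, since without replicate 3 of tra2 XY they were 3 and 5, without replicate 2 the second was 4, and without replicates 1 or 3 of w1118/w+ tra2 XX it was 10 and 8. Of the 60 genes, 41 had every w1118 tra2 XX library below both tra2 XY replicates, where 26.7% of all genes did.

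**Figure D2:**
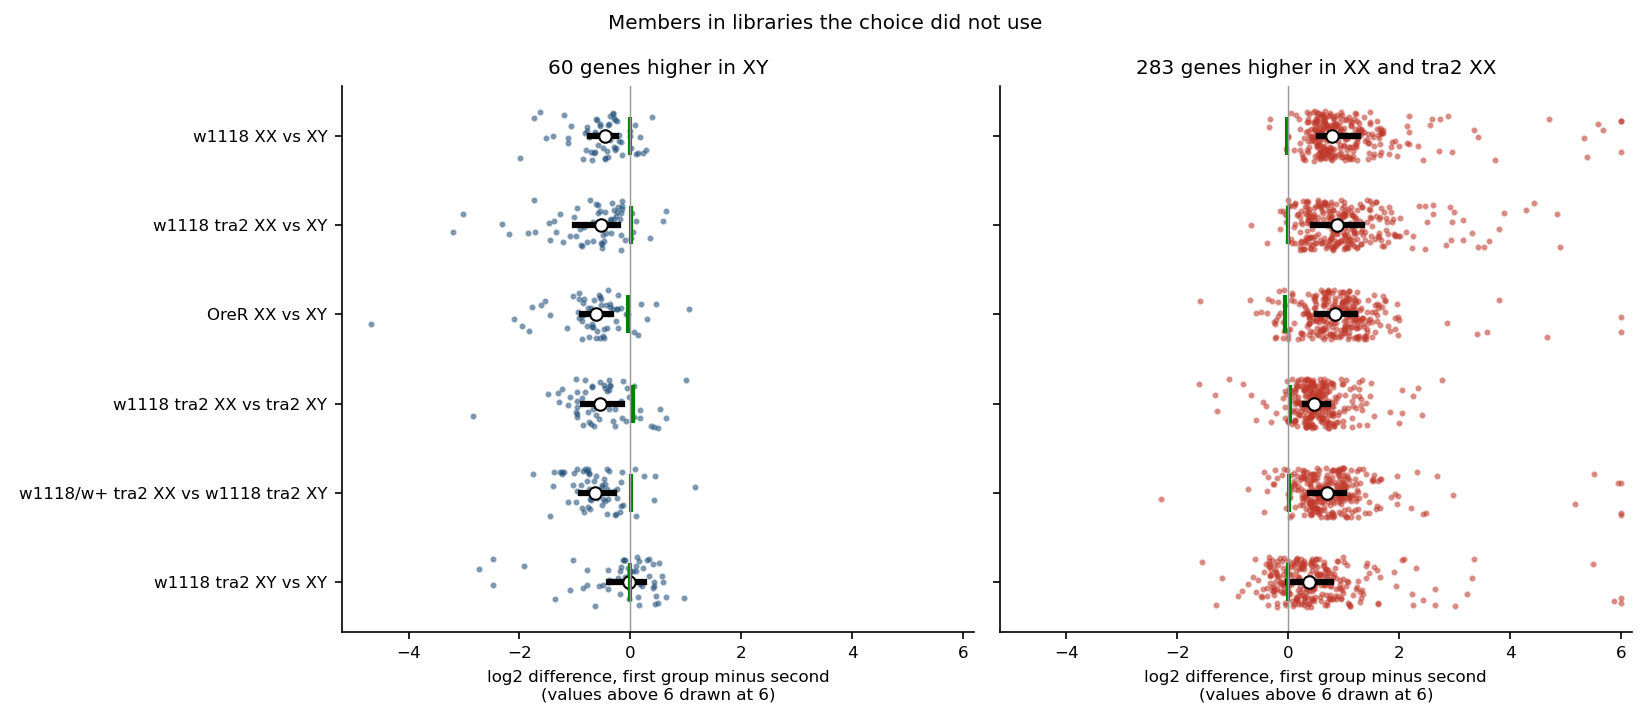
Log2 difference of every XY-high and XX-high gene in each comparison without a Df(3L) deletion, 1 point per gene, with white circles for the median, black bars for the middle quartiles and green ticks for the median of all genes tested. XY-high medians ran from -0.45 in w1118 to -0.64 in w1118/w+ tra2 XX against tra2 XY, and XX-high medians from 0.47 in w1118 tra2 XX against tra2 XY to 0.88 in tra2 XX against XY, over the 5 comparisons of XX with XY flies, while tra2 XY against XY gave -0.02 and 0.37. Values above 6 are drawn at 6.

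Of the XY-high genes, 4 were lower in all 5 comparisons of XX with XY flies named so far: CG6999, CG32706, Gcna and msl-2. CG6999 and CG32706 are next to each other on X and have no role given here. CG6999 had 35.3, 34.0 and 32.5 normalized reads in w1118 XX, 39.7, 37.0 and 41.8 in tra2 XX, and 130.4, 142.3 and 127.6 in XY. The tra2 XY replicates 2 and 3 had 74.0 and 83.9. XX and tra2 XX did not overlap XY or tra2 XY, and tra2 XY was intermediate. For CG6999 the log2 difference was -1.98 ± 0.12 (SE, adjusted p = 1.17e-09) in w1118, -1.83 ± 0.12 in OreR (adjusted p = 6.80e-09) and -0.95 ± 0.13 between tra2 XX and tra2 XY (adjusted p = 0.000908). CG6999 was also lower in tra2 XY than in XY, by -0.79 ± 0.13 (adjusted p = 0.000458).

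CG32706 gave the same order. Its normalized reads were 28.7, 28.1 and 31.3 in w1118 XX, 36.0, 24.9 and 25.5 in tra2 XX, 92.5, 105.0 and 94.4 in XY, and 67.1 and 74.0 in tra2 XY replicates 2 and 3. The groups with 1 X thus lay above both groups with a pair of X chromosomes. For CG32706 the log2 difference was -1.74 ± 0.17 in w1118 (adjusted p = 1.79e-06), -1.96 ± 0.18 in OreR (adjusted p = 4.41e-07) and -1.23 ± 0.19 between tra2 XX and tra2 XY (adjusted p = 0.00199). For CG32706 the last value lost the call in 1 of 11 alternatives.

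msl-2, on 2L, encodes the limiting subunit of the Male-Specific Lethal complex. Its transcript is bound by Sxl protein in XX flies, which holds back its translation, and the counts here are of the RNA. msl-2 had 208, 212 and 237 reads in w1118 XX, 142, 147 and 151 in tra2 XX, 342, 371 and 407 in XY, and 272 and 314 in tra2 XY replicates 2 and 3. Transformed XX flies had the lowest levels, and every XX and tra2 XX value was under every XY value. The log2 difference of msl-2 was -0.78 ± 0.11 in w1118 (adjusted p = 0.000142), -0.92 ± 0.11 in OreR (adjusted p = 2.64e-05), -1.34 ± 0.11 for tra2 XX against XY (adjusted p = 1.47e-07) and -0.96 ± 0.12 between tra2 XX and tra2 XY (adjusted p = 0.000359). In the Df(3L)/+ lines the medians of msl-2 were 180 (XX), 83.8 (tra2 XX) and 375 (XY). Of the 5 protein subunits of the complex, 1 fell and none rose in each of the 5 comparisons of XX with XY flies, and that subunit was msl-2.

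Gcna, an X-linked gene whose product protects genome stability in germ cells, was at 15.1, 25.6 and 20.1 reads in w1118 XX, 13.9, 19.9 and 21.5 in tra2 XX, 42.5, 43.8 and 40.6 in XY, and 38 and 36.3 in tra2 XY replicates 2 and 3. XX and tra2 XX overlapped each other and lay below XY and tra2 XY, and the tra2 XY values were close to XY. For Gcna the log2 difference was -1.07 ± 0.19 in w1118 (adjusted p = 0.0012), -0.94 ± 0.20 in OreR (adjusted p = 0.00334) and -0.99 ± 0.22 between tra2 XX and tra2 XY (adjusted p = 0.0364), where it passed the threshold in 5 of 11 alternatives. The excluded replicate 1 of tra2 XY had 17.3 reads of Gcna, the level of XX flies.

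**Figure D3:**
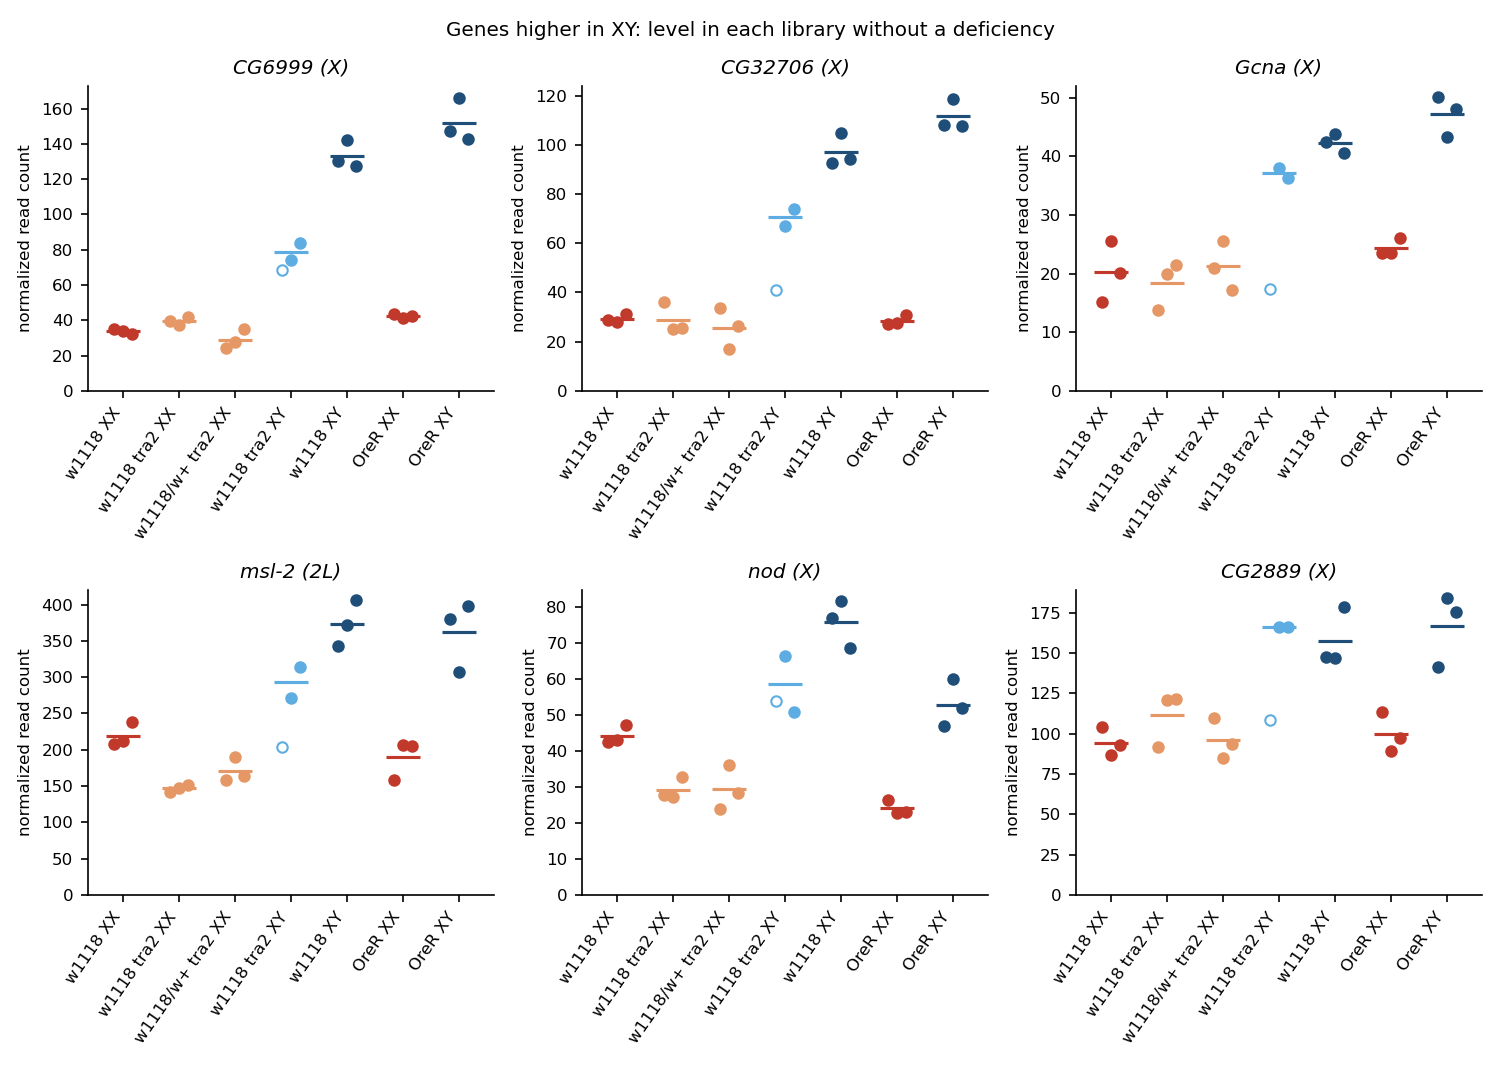
Normalized read counts, on axes that start at 0, of the XY-high genes CG6999, CG32706, Gcna, msl-2, nod and CG2889 in the libraries without a deletion, 1 point per replicate. Lines are means, and replicate 1 of w1118 tra2 XY is an open symbol left out of its mean. CG6999 lay at 32.5 to 41.8 in w1118 XX and tra2 XX and at 127.6 to 142.3 in XY, and msl-2 at 142 to 237 and at 342 to 407.

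The other XY-high genes that passed in 4 of the 5 comparisons were nod, CG2889 and CG4586, all on X. nod encodes a kinesin-like protein that holds chromosomes on the female meiotic spindle. It had 42.4, 42.9 and 47.3 reads in w1118 XX, 27.7, 27.1 and 32.6 in tra2 XX, 77.0, 81.7 and 68.7 in XY, and 66.4 and 50.9 in tra2 XY replicates 2 and 3. nod was thus highest in the groups with 1 X, and its log2 difference was -0.79 ± 0.20 in w1118 (adjusted p = 0.0143), -1.14 ± 0.23 in OreR (adjusted p = 0.0028) and -0.97 ± 0.24 between tra2 XX and tra2 XY, which missed the threshold (adjusted p = 0.0617). The w1118 value of nod passed the threshold in 9 of 12 alternatives. CG2889 had 104.0, 86.7 and 92.7 reads in w1118 XX, 148, 147 and 179 in XY, and 166 in both tra2 XY replicates. CG4586 had the largest fold of the XY-high genes in the Df(3L)/+ lines, with medians of 10.1 (XX), 2.89 (tra2 XX) and 33.5 (XY). Its log2 difference was -1.39 ± 0.28 in w1118 (adjusted p = 0.00351). In OreR, CG4586 was at 5.66, 9.73 and 11.1 in XX and 6.80, 9.67 and 5.26 in XY, which overlap. For CG4586 the difference between the w1118 and OreR sex comparisons passed the threshold in 0 of 18 alternatives, so that a dependence on strain was not shown. Between tra2 XX and tra2 XY, CG4586 was lower by -2.83 ± 0.37 (log2, adjusted p = 0.000400), with 2.77, 5.70 and 4.57 reads against 29.0 and 33.

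The remaining XY-high genes with a known role fell into small groups, which were drawn up after their values had been seen. With Gcna and nod, XRCC1, a scaffold of DNA single-strand break repair, completed the genome maintenance genes. XRCC1 was lower in XX in w1118 by -0.61 ± 0.17 (adjusted p = 0.0257) and in OreR by -0.76 ± 0.18 (adjusted p = 0.00731), but its tra2 XX values of 71.2, 82.6 and 79.6 approached those of tra2 XY replicates 2 and 3, at 92.7 and 101.0. Against the same tra2 XY libraries, w1118/w+ tra2 XX was lower for all 3 genome maintenance genes, XRCC1 included, with log2 differences of -0.97 to -0.70. Genes of cilia and the sperm tail made up most of the next group. It held Cep290 of the ciliary transition zone, the centriole protein Alms1a, the chordotonal channel subunit iav and the axonemal dynein heavy chain Dhc93AB. The adenylyl cyclases ACXC and ACXD were also in it, and the courtship receptor hec was placed with them. None of these 7 fell in w1118 XX, 1 fell in OreR and 1 in tra2 XX against XY. None fell between w1118 tra2 XX and tra2 XY, and 1 fell in w1118/w+ tra2 XX against tra2 XY. iav had 37.7, 29.1 and 28.9 reads in w1118 XX and 24.1, 22.4 and 38.3 in XY, so that its difference in the Df(3L)/+ lines was not seen there. In the Df(3L)/+ libraries, 7 of 20 testis genes had a median of 0 in XY, 13 in XX and 15 in tra2 XX. Their summed median was 1725, 1434 and 546 in that order. In each of these groups, only 1 of the 20 genes had a median over 20 normalized reads, so that the sums do not describe the list as a whole. In the libraries without a deletion, 7 testis genes were tested, and 0 were called in either direction in any comparison of XX with XY flies. The part of such transcripts in the result was not tested. The tra2 XX libraries also had the lowest median depth, whose part in the medians of 0 was not tested.

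The XY-high genes of large fold included several without a role given here. CG17777, on X, had 16, 15.8 and 14.8 reads in w1118 XX and 17.2, 20.6 and 25.7 in XY, but 34.9, 32.4 and 27.6 in OreR XX and 111, 110 and 107 in OreR XY. It fell in OreR by -1.78 ± 0.18 (log2, adjusted p = 2.13e-06) and did not pass in w1118 (-0.45 ± 0.20, adjusted p = 0.154). FBgn0029128 had 45.3, 66.9 and 50.3 reads in w1118 tra2 XX and 159 and 150 in tra2 XY replicates 2 and 3, a log2 difference of -1.48 ± 0.31 (adjusted p = 0.0231). ACXD reached 58.7, 69.1 and 65.9 reads in w1118 tra2 XX, above XY at 43.1, 47.3 and 33.2, so that its order in the Df(3L)/+ lines, with medians of 27.4 and 57.5, was not seen there. CG6041, also X-linked, had 28.6, 34.9 and 32.0 reads in w1118 tra2 XX and 47.7 and 48.9 in tra2 XY replicates 2 and 3, and did not pass in any of the 5 comparisons of XX with XY flies.

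Other named XY-high genes differed in what tra2 XY did. Act88F, the actin of indirect flight muscle, had 123.0, 129.0 and 89.8 reads in w1118 XY and 41.4, 61.6 and 54.9 in XX, but 23.5 and 18.5 in tra2 XY replicates 2 and 3. tra2 XX, at 12.5, 18.5 and 39.2, overlapped with tra2 XY, so that Act88F was low in both tra2 groups (log2 difference of tra2 XY against XY -2.47 ± 0.46, adjusted p = 0.00163). Likewise CG13722 had 9.68 and 9.25 reads in tra2 XY replicates 2 and 3, against 26.4, 27.5 and 17.7 in XY and 8.32, 9.26 and 8.48 in tra2 XX. CG18302 had 441, 399 and 228 reads in XY, 109, 128 and 112 in XX, 214, 296 and 240 in tra2 XX, and 187 and 168 in tra2 XY replicates 2 and 3. These 3 genes met the rule in the Df(3L)/+ lines and had no excess in tra2 XY over tra2 XX. Snmp1, which encodes a membrane protein of pheromone-sensing neurons, did not pass in any of the 5 comparisons.

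Between tra2 XY replicates 2 and 3 and XY, the XY-high genes ran both ways. The median log2 difference of tra2 XY from XY over the 60 genes was -0.02. The middle quartiles were -0.39 and 0.24, and the range was -2.73 to 0.97. Of the 60, 1 gene was higher, Cep290 (all genes 5.58%), and 8 were lower (all genes 4.82%). The lower genes were 7 of the 25 autosomal members, beside 430 of all 8299 autosomal genes tested. The other was 1 of the 30 X-linked members, beside 39 of all 1660 X-linked genes. Both tra2 XY replicates lay under all XY libraries for 17 of the 60 (all genes 20.3%). The number of XY-high genes called lower was 3 without replicate 2 and 4 without replicate 3 of tra2 XY. Between tra2 XX and tra2 XY, 28 of 30 X-linked XY-high genes were below 0, with a median of -0.62 and 4 called, whereas 17 of 25 autosomal genes were below 0, with a median of -0.31 and 1 called. Of all genes tested, 768 of 1660 X-linked ones were below 0 in that comparison, 12 of them called, with a median of 0.04. Of 8299 autosomal ones, 3738 were below 0, 25 of them called, also with a median of 0.04. In w1118/w+ tra2 XX against tra2 XY, 13 of the 30 X-linked and 2 of the 25 autosomal XY-high genes fell, beside 95 of all 1660 X-linked and 215 of all 8299 autosomal genes. The difference between X-linked and autosomal members was not tested.

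The XX-high genes were compared in the same way. Of 283 XX-high genes tested, 153 rose in w1118 XX against XY (all genes 6.72%), none was lower, and the median log2 difference was 0.80. In OreR, 164 were higher (all genes 8.36%, median 0.85), and in tra2 XX against XY 166 were higher (all genes 11.1%, median 0.88). Without replicate 2 of w1118 XX, 100 genes were higher in w1118. All XX libraries exceeded all XY libraries for 224 genes in w1118, against 16.2% of all genes, and for 219 in OreR, against 14.2%.

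Between tra2 mutants the XX-high differences were smaller. In w1118 tra2 XX against tra2 XY replicates 2 and 3, 10 of 283 were higher (all genes 0.667%), 98 had an unadjusted p under 0.05 in either direction, beside 2396 of all 10202 genes, and the median was 0.47. Every tra2 XX library exceeded both tra2 XY replicates for 137 of the 283 genes (all genes 23.6%), and for 221 in the w1118/w+ sibs (all genes 23.6%). In the w1118/w+ tra2 XX sibs, 69 were higher (all genes 4.43%, median 0.70), and Ndg was lower. These counts depended on the libraries. The first was 3 and the second 22 when replicate 1 of tra2 XY was kept. Without replicate 2 of tra2 XY they were 4 and 7, without replicate 3 they were 2 and 9, and the first was 16 without replicate 2 and 6 without replicate 3 of w1118 tra2 XX. Without replicate 1 or 3 of w1118/w+ tra2 XX the second was 34 and 26. The w1118/w+ flies also differ from their sibs in eye pigment, and 7 of 12 photoreceptor genes were higher in them, whose part in the result was not tested.

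The 10 XX-high genes that rose between w1118 tra2 XX and tra2 XY were Ilp5, Ilp3, tw, CG3939, CG15784, CG32726, CG9522, CG4408, Obp18a and Ttc30. Of these, 6 are X-linked, as were 40 of the 68 genes called higher among all genes tested. All 56 X-linked XX-high genes tested lay above 0 in that comparison, with a median of 0.65, beside 891 of all 1660 X-linked genes. Of the 220 autosomal ones 202 did, with a median of 0.44, beside 4555 of all 8299 autosomal genes. All 56 were above 0 in w1118/w+ tra2 XX as well, with a median of 0.83 against 0.66 for the autosomal members, of which 206 were above 0. There, 855 of all 1660 X-linked and 4228 of all 8299 autosomal genes were above 0. In w1118 XX against XY, without tra2 mutations, the medians were 0.74 for X-linked and 0.84 for autosomal members.

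The tra2 XY flies were then set against XY. Over all 283, the median difference of tra2 XY replicates 2 and 3 from XY was 0.37, with 50 higher (all genes 5.58%) and 1 lower. Both tra2 XY replicates exceeded all XY libraries for 128 genes (all genes 23.9%). It was 0.46 for the 220 autosomal genes, of which 47 rose, and 0.15 for the 56 X-linked genes, of which 3 rose. Of all genes tested, 516 of 8299 autosomal and 39 of 1660 X-linked ones rose. The count of 50 was 83 with replicate 1 of tra2 XY, 25 without replicate 2 and 28 without replicate 3. Since the tra2 XY flies came from another cross than the w1118 XY stock, the tra2 alleles and the rest of the background cannot be told apart here.

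**Figure D4:**
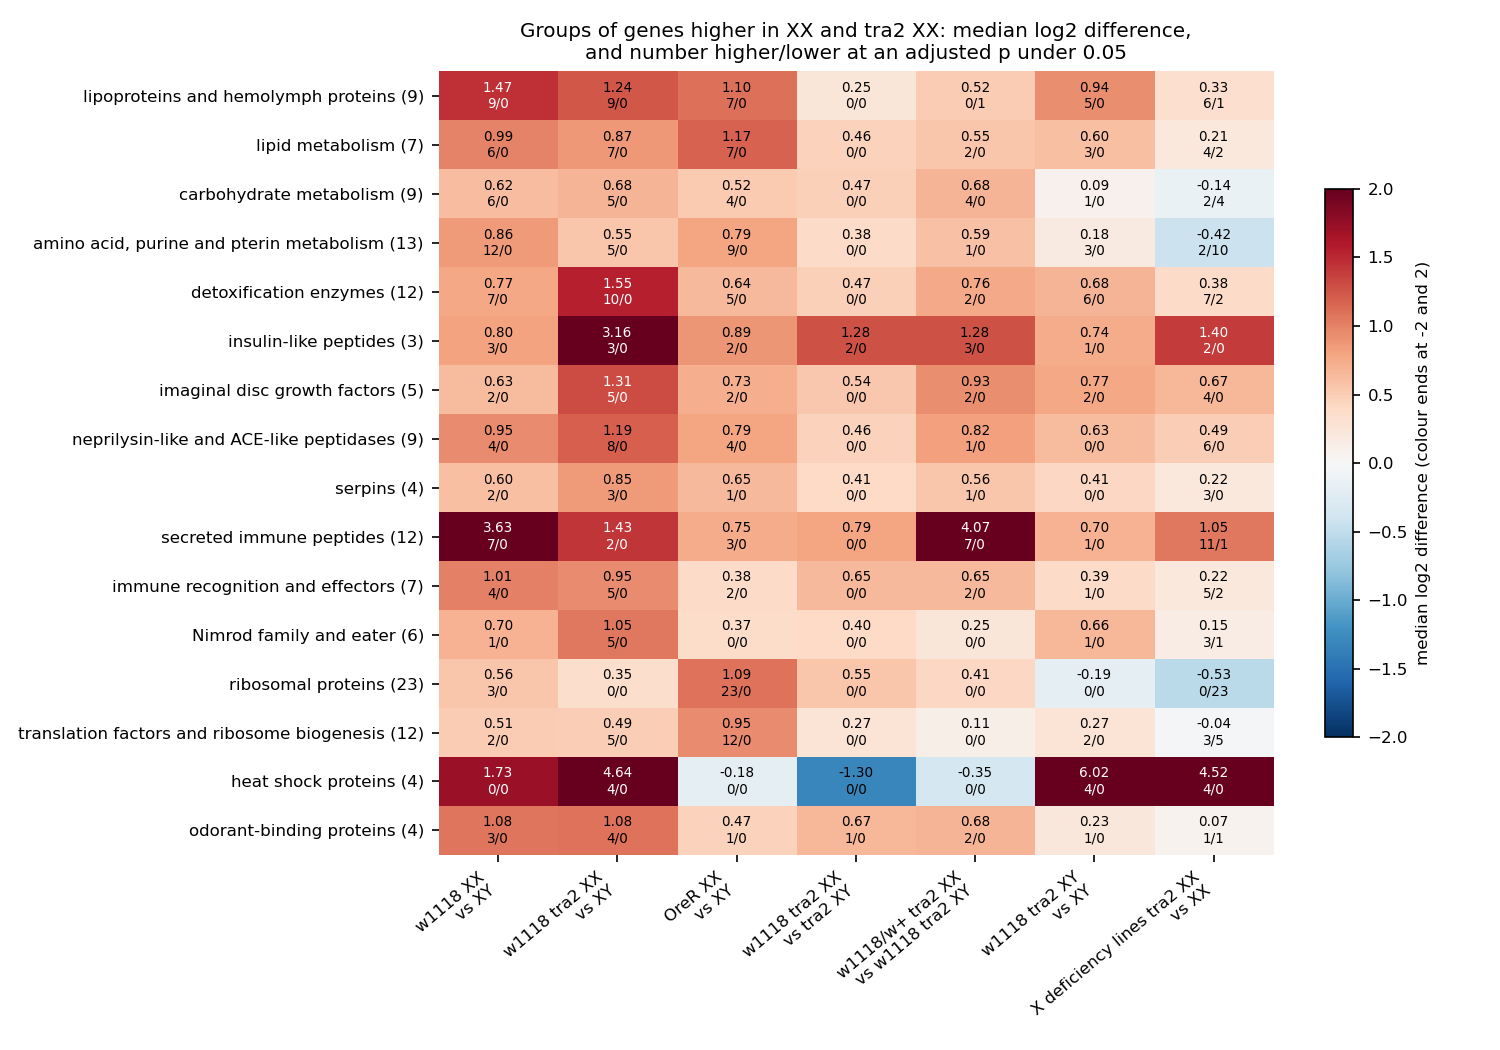
Median log2 difference of each functional group of XX-high genes (colour and upper number) in each comparison, with the Df(1)/+ lines at the right, and the number of genes higher and lower below it. Hemolymph proteins stood at 1.47 in w1118 and 0.25 between w1118 tra2 XX and tra2 XY, and insulin-like peptides at 0.80 and 1.28.

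The groups of XX-high genes that follow were drawn up after their values had been seen, from genes that the rule had chosen. Beside their counts, 6.72% of all genes tested were higher in w1118 XX, 8.36% in OreR XX and 11.1% in tra2 XX against XY. The share was 5.58% in tra2 XY against XY. It was 0.667% in w1118 tra2 XX and 4.43% in w1118/w+ tra2 XX, each against tra2 XY. The first named group of XX-high genes described here is the lipoproteins and other hemolymph proteins, products of the fat body and of hemocytes that circulate or line the body cavity. Of 9 such genes, 9 were higher in w1118 XX (median log2 difference 1.47), 9 in tra2 XX against XY (1.24) and 7 in OreR XX (1.10). None was higher between w1118 tra2 XX and tra2 XY, where the median was 0.25, and 5 were higher in tra2 XY than in XY (0.94). apolpp, which encodes the apolipoproteins of lipophorin, the main lipid carrier of hemolymph, had 31731, 44560 and 34176 reads in w1118 XX, 36110, 22145 and 29727 in tra2 XX, 16291, 14528 and 6254 in XY, and 20669 and 20163 in tra2 XY replicates 2 and 3. XX, tra2 XX and tra2 XY all lay above XY, and every tra2 XX library exceeded both tra2 XY replicates. The w1118/w+ tra2 XX sibs had 36837.5, 42269.6 and 40528.5 reads. Over 11 alternatives, the log2 difference from tra2 XY was 0.36 to 0.71 in w1118 tra2 XX and passed the threshold in 0. In w1118/w+ tra2 XX it was 0.85 to 1.05 and passed in 2. For apolpp the log2 difference was 1.56 ± 0.29 in w1118 (adjusted p = 0.00173), 1.25 ± 0.29 in tra2 XX against XY (adjusted p = 0.00458) and 1.41 ± 0.29 in OreR (adjusted p = 0.00275).

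The other members of this group followed. Apoltp, the lipid transfer particle that loads lipophorin, had 2554, 2847 and 2871 reads in w1118 XX, 1070, 1047 and 574 in XY, and 1753 and 1890 in tra2 XY replicates 2 and 3. fon, a clotting protein, had 1942, 1766 and 1710 reads in XX, 781, 763 and 333 in XY, and 1300 and 1720 in tra2 XY. For both, tra2 XY lay above every XY library, and the log2 difference from XY was 0.99 ± 0.25 for Apoltp (adjusted p = 0.0169) and 1.23 ± 0.34 for fon (adjusted p = 0.0257). Mtp, the transfer protein that loads lipid in the cell, rose by 1.04 ± 0.21 in w1118 XX (adjusted p = 0.00299), and LanB2, a laminin subunit of basement membrane, by 1.03 ± 0.18 (adjusted p = 0.00129). Replicate 3 of w1118 XY had the lowest value of each of these 5 genes, and without it 107 XX-high genes were higher in w1118 XX, in place of 153.

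A list of fat body genes was summed beside these results. The summed normalized reads of the 5 of its 6 genes found, which include apolpp, had medians of 102654 (XX), 105331 (tra2 XX) and 48322 (XY) of the Df(3L)/+ lines. In w1118 the sums were 43947, 87586 and 45120 in XX, 62896, 35244 and 53221 in tra2 XX, 27297, 23313 and 10030 in XY, and 37441 and 39784 in tra2 XY replicates 2 and 3. apolpp made up most of this sum in w1118 XX, with 31731, 44560 and 34176 reads, and it is itself an XX-high gene. The other genes of the list did not all follow it. Of the 5 genes, 1 rose in w1118 XX, 2 in tra2 XX against XY, and 1 rose and 1 fell in OreR XX. Lsp2, a larval serum protein, had Df(3L)/+ medians of 15918 (XX), 1651 (tra2 XX) and 8986 (XY). Tsf1, also of the list, had Df(3L)/+ medians of 18305 (XX), 47684 (tra2 XX) and 14593 (XY). The feeding and circadian gene to (takeout) had 4127, 3993 and 3366 reads in OreR XX and 17541, 18057 and 17429 in OreR XY. In w1118, to had 527, 524 and 476 reads in XX, and 667, 569 and 382 in XY. It had 9655, 2919 and 11461 in tra2 XX, and 9458 and 12215 in tra2 XY replicates 2 and 3. Fbp1 was at most 13.4 reads in the 7 groups without a deletion that were compared. The 4 hemocyte genes summed to medians of 2728, 2410 and 1822, and 5 neuronal genes to 17822, 13544 and 22308 in XX, tra2 XX and XY of the Df(3L)/+ lines. The part of a differing share of fat body in the XX-high set was not tested.

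Metabolic enzymes made up the next groups. All 7 genes of lipid metabolism were higher in OreR XX and in tra2 XX against XY, and 6 of 7 in w1118 XX. Of these, 0 rose between w1118 tra2 XX and tra2 XY (median 0.46), and 2 in w1118/w+ tra2 XX against tra2 XY (0.55). bgm, a very long chain acyl-CoA synthetase, had 1011, 898 and 835 reads in w1118 XX and 438, 467 and 265 in XY, a log2 difference of 1.21 ± 0.18 (adjusted p = 0.000305). Desat1, the desaturase that makes precursors of cuticular pheromones, rose by 0.76 ± 0.24 in OreR XX (adjusted p = 0.0445) and was at 0.50 ± 0.24 in w1118 (adjusted p = 0.195). Among 9 enzymes of carbohydrate metabolism, 6 rose in w1118 XX and 4 in w1118/w+ tra2 XX against tra2 XY. Between w1118 tra2 XX and tra2 XY, 0 of the 9 rose, with a median of 0.47. fbp, the gluconeogenic fructose-1,6-bisphosphatase, had 950, 1265 and 927 reads in w1118 XX, 684, 476 and 641 in tra2 XX, 492, 399 and 236 in XY, and 426 and 389 in tra2 XY replicates 2 and 3. For fbp, tra2 XY thus lay within the range of XY.

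Of 13 genes of amino acid, purine and pterin metabolism, 12 rose in w1118 XX (median 0.86) and 9 in OreR XX (0.79). Between w1118 tra2 XX and tra2 XY 0 rose (0.38), and in w1118/w+ tra2 XX against tra2 XY 1 rose (0.59). Nt5b, a 5'-nucleotidase gene on X, had 1739, 1763 and 1722 reads in w1118 XX, 1801, 1488 and 1590 in tra2 XX, 1245, 1181 and 1063 in XY, and 1329 and 1371 in tra2 XY replicates 2 and 3. It was 1 of the genes with narrow spread, and its log2 difference was 0.57 ± 0.10 in w1118 (adjusted p = 0.00142) and 0.58 ± 0.10 in OreR (adjusted p = 0.001). vermilion (v), the tryptophan oxygenase of the brown eye pigment pathway, had log2 differences of 0.86 ± 0.28 in w1118 and 0.76 ± 0.28 in OreR, neither past the threshold.

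Detoxification enzymes were a further group. Of 12 cytochromes P450, glucuronosyltransferases and esterases, 7 rose in w1118 XX (median 0.77), 10 in tra2 XX against XY (1.55), 5 in OreR XX and 6 in tra2 XY against XY. The shares of all genes called higher were, in that order, 6.72%, 11.1%, 8.36% and 5.58%. Cyp12d1-p and Cyp12d1-d are near-identical neighbours, so that the split of reads between them is uncertain. alpha-Est2, an esterase, had 166, 163 and 100 reads in w1118 XX, 338, 165 and 226 in tra2 XX, 54.0, 49.4 and 29.2 in XY, and 118 and 108 in tra2 XY replicates 2 and 3. In OreR, alpha-Est2 was at 97.2, 122.0 and 131.0 in XX and at 7.65, 5.07 and 2.63 in XY. The log2 difference was 1.68 ± 0.27 in w1118 (adjusted p = 0.000633) and 4.66 ± 0.39 in OreR (adjusted p = 2.03e-07).

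Several XX-high genes of large fold were low in w1118 and high in the tra2 groups. The P450 gene Cyp6d2 had 1.88, 0.493 and 2.36 reads in w1118 XX, 21.7, 9.97 and 13.1 in tra2 XX, 2.30, 0.860 and 0 in XY, and 8.99 and 13.9 in tra2 XY replicates 2 and 3. XX overlapped XY, tra2 XX overlapped tra2 XY, and Cyp6d2 rose in tra2 XY against XY by 3.35 ± 0.79 (log2, adjusted p = 0.0103). CG10073 was likewise highest in the tra2 groups, at 3.77, 4.43 and 1.77 in XX, 15.7, 6.41 and 18.3 in tra2 XX, 1.15, 0.860 and 0.572 in XY, and 8.30 and 10.6 in tra2 XY. CG43064 had 10.4 and 9.91 reads in tra2 XY replicates 2 and 3, and 4.60, 3.01 and 1.72 in XY. The pigmentation gene yellow (y), with Df(3L)/+ medians of 4.74, 30.7 and 1.45 in XX, tra2 XX and XY, was at or under 5.87 reads in every w1118 library and was too low to be tested, which makes it the untested XX-high gene.

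Other XX-high genes of large fold were high in w1118 XX itself. CG8665 had 548, 437 and 461 reads in w1118 XX, 98.2, 82.5 and 36.6 in XY, and 178 and 201 in tra2 XY replicates 2 and 3. Acox57D-d, an acyl-CoA oxidase, had 63.1, 85.7 and 41.4 reads in w1118 XX, 28.2, 18.5 and 12.6 in XY, and 57.4 and 60.8 in tra2 XY. In OreR the log2 difference was 1.35 ± 0.30 for CG8665 (adjusted p = 0.00486) and 2.86 ± 0.32 for Acox57D-d (adjusted p = 9.94e-06). CG43402 had 127, 148 and 150 reads in w1118 XX, 41.9, 36.5 and 13.7 in XY, and 35.3 and 35.0 in tra2 XY, so that its tra2 XY level lay within XY. The glucuronosyltransferase gene Ugt37A3 had 13.6, 97.6 and 11.2 reads in w1118 XX and 11.5, 2.58 and 2.29 in XY, and XX overlapped XY, with replicate 2 of XX far above the others.

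The insulin-like peptides had a median log2 difference of 1.28 between w1118 tra2 XX and tra2 XY, with 2 of 3 higher. Ilp3 and Ilp5 are made by insulin-producing neurons of the brain, and Ilp6 by the fat body. Ilp3 had 103.5, 111.4 and 84.5 reads in w1118 XX, 307, 439 and 338 in tra2 XX, 31.0, 39.6 and 21.7 in XY, and 141 and 164 in tra2 XY replicates 2 and 3. The order of the groups was XY, XX, tra2 XY and tra2 XX, with no overlap between neighbours. The log2 difference of Ilp3 was 1.67 ± 0.25 for XX against XY (adjusted p = 0.000274), 1.28 ± 0.25 for tra2 XX against tra2 XY (adjusted p = 0.0155, past the threshold in 9 of 11 alternatives) and 2.26 ± 0.27 for tra2 XY against XY (adjusted p = 2.04e-05). In OreR, Ilp3 had 78.3, 57.6 and 50.6 reads in XX and 11.9, 21.6 and 12.8 in XY.

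Ilp5 was also highest in tra2 XX, with 91.8, 112.8 and 83.3 reads in w1118 XX, 303, 675 and 484 in tra2 XX, 62.6, 49.9 and 52.1 in XY, and 92.7 and 93.8 in tra2 XY replicates 2 and 3. tra2 XX exceeded every other group. The log2 difference of Ilp5 between tra2 XX and tra2 XY was 2.42 ± 0.27 (adjusted p = 6.08e-05), and that between XX and XY was 0.80 ± 0.24 (adjusted p = 0.0345). The latter passed the threshold in 8 of 12 alternatives. In OreR, Ilp5 passed in 0 of 12, with log2 differences of 0.24 to 0.51. Ilp6 had 489, 418 and 388 reads in w1118 XX, 330, 278 and 136 in XY, and 276 and 306 in tra2 XY replicates 2 and 3, the last within the range of XY. It rose by 0.78 ± 0.23 in w1118 (adjusted p = 0.0314) and by 0.89 ± 0.23 in OreR (adjusted p = 0.0152).

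**Figure D5:**
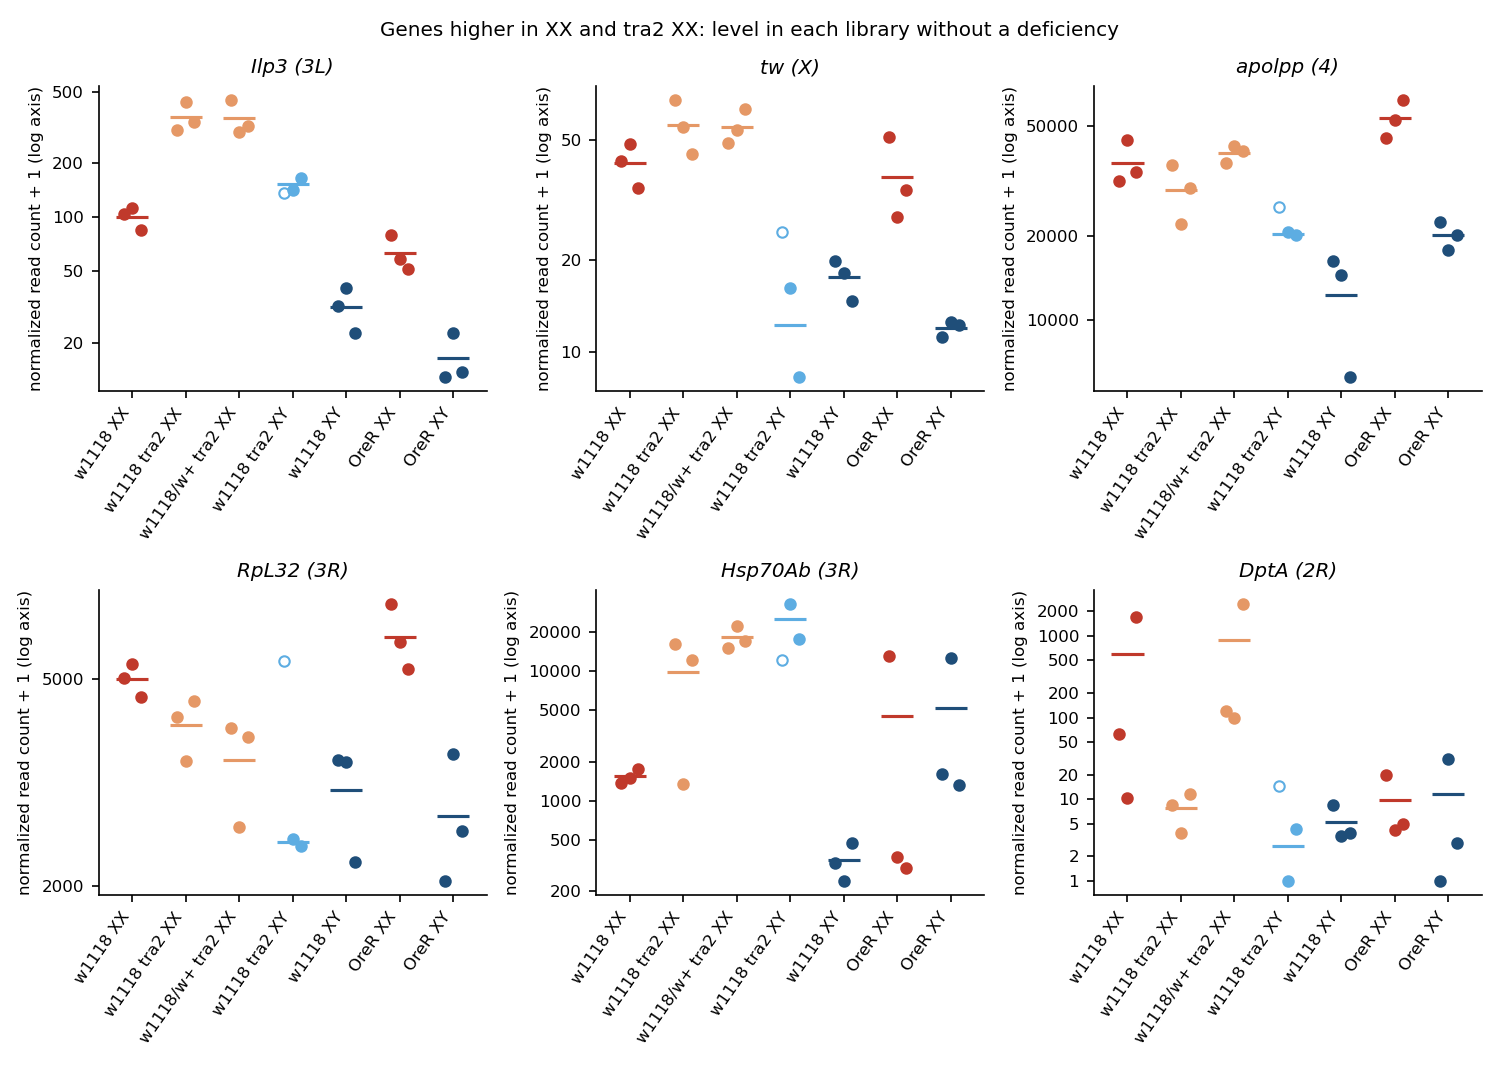
Normalized read counts plus 1, on log axes, of the XX-high genes Ilp3, tw, apolpp, RpL32, Hsp70Ab and DptA in the libraries without a deletion, 1 point per replicate. Lines are means, and replicate 1 of w1118 tra2 XY is an open symbol left out of its mean. Ilp3 rose from 21.7 to 39.6 in w1118 XY to 84.5 to 111.4 in XX and 307 to 439 in tra2 XX, and apolpp lay at 6254 to 16291 in XY and at 31731 to 44560 in XX.

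Apart from Ilp3, tw and CG3939 were the XX-high genes that rose in all 5 comparisons, and both are X-linked. tw (twisted) encodes a protein O-mannosyltransferase. It had 41.4, 47.3 and 33.7 reads in w1118 XX, 66.5, 54.1 and 43.7 in tra2 XX, 19, 17.2 and 13.7 in XY, and 15.2 and 7.27 in tra2 XY replicates 2 and 3. Both groups with 1 X were at the low level, and tw did not rise in tra2 XY. tw had a log2 difference of 1.28 ± 0.27 in w1118 (adjusted p = 0.00479), 1.71 ± 0.30 in OreR (adjusted p = 0.00098) and 2.34 ± 0.34 between tra2 XX and tra2 XY (adjusted p = 0.00112). CG3939, with no role given here, had 88.5, 97.1 and 92.2 reads in w1118 XX, 87.3, 92.6 and 129.0 in tra2 XX, 60.3, 67.5 and 46.9 in XY, and 44.96 and 50.2 in tra2 XY replicates 2 and 3. The excluded replicate 1 of tra2 XY had 110 reads of CG3939, within the range of tra2 XX. For tw and CG3939 the difference between tra2 XX and tra2 XY passed the threshold in 9 and 8 of 11 alternatives.

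The other named XX-high genes, 40 in number, ranged over many roles, such as the stress kinase p38c, the cathepsin CtsL3, the replication genes Cdc7 and Mcm7, the exosome subunit Rrp46, the importin Ipo9, the aspartate-glutamate carrier aralar1 and the lysosomal enzyme Naglu. Of the 39 tested, 26 rose in w1118 XX (median 0.83), 22 in OreR XX (0.86), 23 in tra2 XX against XY (0.87), and 2 between w1118 tra2 XX and tra2 XY (0.43), which were tw and Ttc30. Ttc30, an autosomal gene for a protein of intraflagellar transport, was intermediate in tra2 XY. It had 116, 104 and 110 reads in w1118 XX, 97.5, 105.0 and 119.0 in tra2 XX, 32.2, 27.1 and 25.2 in XY, and 74.0 and 45.6 in tra2 XY replicates 2 and 3. Ttc30 had a log2 difference of 1.96 ± 0.18 in w1118 (adjusted p = 8.73e-07), 0.88 ± 0.19 between tra2 XX and tra2 XY (adjusted p = 0.0312), and 0.63 ± 0.21 in OreR, which missed the threshold (adjusted p = 0.0545). Obp18a, an X-linked odorant-binding protein gene, was high in tra2 XX. Its reads were 477, 397 and 415 in tra2 XX, 183 and 197 in tra2 XY replicates 2 and 3, 259, 247 and 234 in w1118 XX, and 234, 248 and 161 in XY. Thus Obp18a in w1118 XX overlapped XY, although 3 of the 4 odorant-binding protein genes rose in w1118 XX, and it differed between the tra2 mutants by 1.22 ± 0.24 (log2, adjusted p = 0.0155).

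Secreted proteins of growth and proteolysis were also represented. The 5 imaginal disc growth factors are chitinase-like proteins of the fat body and hemocytes, and 2 rose in w1118 XX, 5 in tra2 XX against XY and 2 in OreR. Idgf1 had 494, 471 and 468 reads in w1118 XX, 233, 251 and 143 in XY, and 279 and 333 in tra2 XY replicates 2 and 3. Of 9 neprilysin-like and ACE-like peptidases, which cleave peptides outside cells, 4 rose in w1118 XX (median 0.95) and 8 in tra2 XX against XY (1.19). Acer, a member that just met the rule, had 1485, 813 and 1087 reads in w1118 tra2 XX, 699, 764 and 564 in XX, and 658, 521 and 277 in XY. The 4 serpins, inhibitors of proteases of the immune cascades, rose in 2, 3 and 1 cases in w1118 XX, tra2 XX against XY and OreR.

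Immune genes had large differences carried by few libraries. The 12 secreted immune peptides had a median log2 difference of 3.63 in w1118 XX with 7 higher, 0.79 in w1118 tra2 XX against tra2 XY with none higher, 4.07 in w1118/w+ tra2 XX against tra2 XY with 7 higher, and 0.75 in OreR with 3 higher. DptA, the antibacterial peptide Diptericin, had the largest fold in the Df(3L)/+ lines, with medians of 215 (XX), 269 (tra2 XX) and 31.0 (XY), but its range there was 5.47 to 9964 in XX and 2.20 to 4478 in XY. In w1118 XX it had 62.6, 9.36 and 1698 reads, so that replicate 3 carried most of the group's reads. In XY it had 7.47, 2.58 and 2.86 reads. DptA had a log2 difference of 7.10 ± 1.81 (adjusted p = 0.0152), which passed the threshold in 9 of 12 alternatives, and in OreR it was -0.48 ± 2.37 (adjusted p = 0.928). DptA with DptB and AttA with AttB are similar neighbours, so that reads could be split between them.

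DptB, a second Diptericin, had 105.0, 13.3 and 530 reads in w1118 XX and 4.60, 7.31 and 2.29 in XY. Mtk, the peptide Metchnikowin, had 167.0, 39.9 and 748 reads in w1118 XX, 167.0, 11.4 and 67.2 in tra2 XX, 14.4, 11.2 and 10.3 in XY, and 13.1 and 51.5 in tra2 XY replicates 2 and 3. In w1118/w+ tra2 XX it had 784, 327 and 3222. Of 7 genes of immune recognition and its effectors, 4 rose in w1118 XX and 5 in tra2 XX against XY. The 6 genes of the Nimrod family with eater, phagocytosis receptors of hemocytes, rose in 1 case in w1118 XX, in 5 in tra2 XX against XY and in none in OreR. eater had 97.9, 83.3 and 70.9 reads in w1118 XX, 92.4, 103.0 and 134.0 in tra2 XX, and 52.3, 54.6 and 37.2 in XY.

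Ribosomal protein genes passed the test in OreR. All 23 ribosomal protein genes of the XX-high set rose in OreR XX (median 1.09), 3 rose in w1118 XX (0.56) and none rose in tra2 XX against XY (0.35) or between the tra2 mutants (0.55 and 0.41). RpS20 had 6157, 4084 and 3941 reads in OreR XX and 1260, 2254 and 1872 in XY, against 3573, 3671 and 2907 in w1118 XX and 2644, 2638 and 1212 in XY. No OreR XX value overlapped with OreR XY, and in w1118 the log2 difference of 0.63 ± 0.28 missed the threshold (adjusted p = 0.155). The 12 translation factors and ribosome biogenesis genes rose in 12 cases in OreR, in 2 in w1118 XX and in 5 in tra2 XX against XY. eEF2, the translocase of elongation, rose by 0.81 ± 0.18 in OreR (adjusted p = 0.00543) and was at 0.22 ± 0.18 in w1118 (adjusted p = 0.468). The difference between OreR and w1118 did not pass its own test for any of these genes.

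The heat shock genes were high in both tra2 karyotypes. Hsp70Ab had Df(3L)/+ medians of 153 (XX), 5974 (tra2 XX) and 69.4 (XY). In w1118 it had 332, 240 and 469 reads in XY, 1376, 1483 and 1751 in XX, 16069, 1355 and 12120 in tra2 XX, and 32800 and 17673 in tra2 XY replicates 2 and 3. Both tra2 groups were high, with 1 low tra2 XX library. All 4 heat shock genes rose in tra2 XX against XY and in tra2 XY against XY, none rose in w1118 XX or OreR XX, and the median between tra2 XX and tra2 XY was -1.30 with no gene called. Hsp70Aa and Hsp70Ab are near-identical copies, and reads between them are uncertain. In OreR, Hsp70Ab was at 12901, 370 and 300 in XX and 1605, 12550 and 1331 in XY, so that single libraries of either sex were high.

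Some genes met the rule although tra2 XX was far below XX. In the Df(3L)/+ lines, tra2 XX was at most 0.5 times XX for 12 XX-high genes and at least 2 times XX for 30, and the log2 ratio of tra2 XX to XX over the 284 genes ran from -9.60 to 5.37 with a median of 0.09. Yp3, a yolk protein gene, had medians of 335448 (XX), 432 (tra2 XX) and 222 (XY), so that it entered the set through the small excess of tra2 XX over XY. In w1118 it had 450, 419 and 364 reads in tra2 XX, 426, 311 and 240 in XY, and 311 and 281 in tra2 XY replicates 2 and 3, which overlap, and the log2 difference of Yp3 between tra2 XX and XY was 0.34 ± 0.23 (adjusted p = 0.331). fit, a secreted satiety signal of the female fat body, had 3060, 6611 and 2857 reads in w1118 XX, 335, 554 and 925 in tra2 XX, 116.0, 97.2 and 26.9 in XY, and 150 and 112.9 in tra2 XY replicates 2 and 3. It remained higher in tra2 XX than in XY by 2.91 ± 0.49 (adjusted p = 0.000395).

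Ndg and Myo61F also had most of their excess in XX alone. Ndg, the basement membrane protein nidogen, had 298, 303 and 362 reads in w1118 XX, 39.7, 40.6 and 44.4 in tra2 XX, 23, 27.1 and 21.2 in XY, and 60.9 and 56.1 in tra2 XY replicates 2 and 3. tra2 XX lay above XY but below tra2 XY, and Ndg was lower in w1118/w+ tra2 XX than in tra2 XY (log2 difference -0.72 ± 0.20, adjusted p = 0.0378). Myo61F, a class I myosin, had 131, 139 and 103 reads in w1118 XX, 30.03, 22.1 and 20.9 in tra2 XX, 11.5, 13.8 and 10.9 in XY, and 25.6 and 21.1 in tra2 XY. For Myo61F tra2 XX overlapped tra2 XY.

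Whether the sex difference was the same in w1118 flies and tra2 mutants was tested as the difference between w1118 XX against XY and w1118 tra2 XX against tra2 XY. These groups came from different crosses, so that the tra2 alleles and the rest of the background cannot be told apart in it. Among the XX-high genes, 13 had a larger difference without the tra2 mutations (all genes 1.00%) and 1, Ilp5, a smaller one (all genes 1.62%), with a median of 0.35 over 283 genes. Among the 60 XY-high genes, CG6999 and CG18302 had XX further below XY without the tra2 mutations, and no gene passed the other way. The count of 13 was 8 without replicate 2 of w1118 XX, 21 without replicate 1 of tra2 XX, and 6 and 8 without replicates 2 and 3 of tra2 XY. The count of 2 was 4 without replicate 3 of w1118 XY and 1 without replicate 2 of tra2 XY, and without replicate 3 of w1118 XY 6 XY-high genes differed the other way. The difference between the w1118 and OreR sex comparisons passed the test for alpha-Est2 alone among all 343 members tested (all genes 0.0294% higher and 0.00980% lower in w1118). At an unadjusted p under 0.05, 6 of 60 XY-high and 47 of 283 XX-high genes differed between the strains, beside 996 of all 10202 genes.

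The Df(1)/+ lines gave tra2 XX against XX in other libraries, 57 and 56 of them. Of 56 XY-high genes tested, 35 were lower in tra2 XX (all genes 35.4% of 8936) and 3 were higher (all genes 29.0%), with a median log2 difference of -0.31. The number higher was 5 without replicate 1 and 1 without replicate 2. Of 284 XX-high genes, 122 were higher (all genes 29.0%) and 90 lower (all genes 35.4%), with a median of 0.08. msl-2 was lower in tra2 XX by -0.58 ± 0.08 (adjusted p = 4.13e-10) and nod by -0.79 ± 0.11 (adjusted p = 1.73e-09), while CG6999 at -0.04 ± 0.09 and CG32706 at 0.07 ± 0.10 did not pass. In the XX-high set the 4 heat shock genes rose with a median of 4.52, 11 of 12 secreted immune peptides rose (1.05), and Ilp3 rose by 2.04 ± 0.08 (adjusted p = 2.72e-42), with group medians of 136 in tra2 XX and 29.996 in XX. All 23 ribosomal protein genes fell, with a median of -0.53, and so did 10 of 13 genes of amino acid, purine and pterin metabolism, with a median of -0.42. Tudor-SN, a subunit of a ribonucleoprotein nuclease complex, fell by 0.51 on the log2 scale.

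Members lying next to each other were counted along the annotation. Among the 55 placed XY-high genes, 6 lay in 3 pairs of adjacent genes, all on X: CG32706 with CG6999, CR45533 with CR43199, and CG12672 with CG6867. Among 277 placed XX-high genes, 30 lay in 14 runs of up to 3. Some runs were clusters of related genes: Dro with AttA and AttB, DptA with DptB, NimB4 with NimB5, and Idgf1 with Idgf2. Others, such as Ance-4 with PPO2 and CG10467 with loj, are not given as related here. How many neighbours would be met among genes taken without the rule was not worked out, so that these counts are a description. The kit of the study does not mark strand, so that reads of overlapping genes cannot be told apart.

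Across the 5 comparisons of XX with XY flies, 4 XY-high genes passed in 5, 3 in 4, 4 in 3, 13 in 2, 15 in 1 and 21 in none. Of the XX-high genes, 3 passed in 5, 22 in 4, 71 in 3, 81 in 2, 84 in 1 and 23 in none, which include the untested gene y. The same tally was not made over all genes tested. The comparisons other than that in OreR share libraries, so that passing in several is not independent. The 22 XX-high genes that passed in 4 included Ilp5, Ilp6, Idgf1, fbp, Nt5b, Ttc30, alpha-Est2 and fit.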

How the data were processed

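Heads were profiled by RNA-Seq with 76-nt single-end reads from TruSeq V2 libraries with spike-in RNAs. The authors deposited read counts per gene, made with TopHat2 2.0.10 and HTSeq 0.5.4p1 per the submitters' processing notes, which also name CASAVA 1.8.2. They deposited a normalized signal, read counts divided by DESeq2 1.6.3 size factors, and FPKM values from Cufflinks 2.1.1. Tables of 235 libraries were used; those of 249 libraries were not used here. Whether counting used strand is not given in the sources used here. Of the reads, 7.12% named no gene and 1.19% were spike-ins, and both were left out of library sizes.

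Members came from the normalized values. Tests ran on the deposited counts with edgeR 4.0.16 (quasi-likelihood, TMM scaling, filterByExpr) in R 4.3.3 with limma 3.58.1, in 1 fit over the libraries without a deletion except w1118 tra2 XY replicate 1, and in another fit over the Df(1)/+ lines with deletion as a term. Benjamini-Hochberg adjustment covered all genes tested, with a threshold of 0.05. Python 3.11.15 with pandas 2.3.3, numpy 2.4.6 and matplotlib 3.10.9 did the rest. The quasi-likelihood test of the libraries without a deletion was also run on simulated counts with known changes, and its outcome is not given here. Chromosomes came from BDGP6, which held 332 of the 344 members; the order of genes there gave the neighbours, and no coordinates are printed.

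Named genes were the 12 of largest fold in each direction and members with a symbol beyond a CG or CR number, the latter by functional group; other CG genes named were chosen after their values were seen. The members and lists were chosen with earlier results of these data known. The functional groups, the comparison of tra2 XY with XY and the alternatives without libraries high in yolk protein were chosen after seeing the data. Alternatives were DESeq2 1.42.0, other scalings, filters and ratios, only the groups compared, a replicate block, and leaving out each replicate.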

Additional observations from a re-analysis of the deposited data

Results flagged for a closer look

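For 16 genes the sex difference changed between w1118 flies and tra2 mutants, by the test of the difference of both log2 differences (XX against XY minus tra2 XX against tra2 XY replicates 2 and 3, the quasi-likelihood test of edgeR, adjusted by the Benjamini-Hochberg method). Among the XY-high genes the value was -1.03 ± 0.18 for CG6999 and -2.16 ± 0.33 for CG18302, that is, XX lay further below XY without the tra2 mutations. CG18302 was at -1.63 in w1118 and at 0.53 between the tra2 mutants.

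Among the XX-high genes the value was 7.99 ± 0.37 for Yp3, 4.18 ± 0.26 for Ndg, 3.44 ± 0.69 for fit and 3.22 ± 0.42 for Myo61F. It was 2.66 ± 0.38 for Obp83ef, 2.20 ± 0.49 for Ass, which encodes argininosuccinate synthetase, and 2.15 ± 0.43 for CG11842. It was 1.53 ± 0.26 for su(r), a gene of pyrimidine breakdown, 1.43 ± 0.34 for Apoltp, 1.37 ± 0.24 for Tig, 1.15 ± 0.27 for bgm, 1.08 ± 0.26 for Ttc30 and 0.99 ± 0.23 for Tudor-SN. Ilp5 was the gene with the larger difference between tra2 mutants, at -1.62 ± 0.35, from 0.80 in w1118 to 2.42. The adjusted p of these 16 genes ranged from 1.50e-10 for Yp3 to 0.0341 for Ttc30.

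The sex difference of alpha-Est2 differed between strains, by -2.98 ± 0.50 (adjusted p = 0.0363), from 1.68 in w1118 to 4.66 in OreR.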

How the results depend on the processing

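The number of members followed the rule. It was 31 XY-high genes above a minimum of 50, 982 XY-high and 535 XX-high without a minimum, 9 and 67 at a ratio of 2, and 957 and 156 on FPKM with the minimum also changed, to 1. On FPKM the median of all genes shifted by -0.25 (XX) and -0.36 (tra2 XX) on the log2 scale. Of the 60 and 284 members, 58 and 104 were kept on FPKM. Leaving out each replicate gave 55 to 87 and 260 to 320, with 45 to 52 and 236 to 263 of the members kept. With only the groups compared in the fit, XX-high counts were 80 (w1118), 80 (tra2 XX against XY), 56 and 180 (tra2 XX against tra2 XY, w1118 and w1118/w+), and XY-high counts 14 (OreR), 19 and 27 (the same tra2 pair). DESeq2 gave 37 and 108 XX-high genes for that pair, and keeping tra2 XY replicate 1 gave 3 and 22. For tra2 XY against XY, XY-high genes were 5 and XX-high 29 with only those groups, and XX-high 83 with replicate 1. For the difference between w1118 and tra2 mutants, 6 lower and 1 higher XY-high genes and 4 lower XX-high genes passed with only the groups compared, 20 higher with replicate 1, and 26 higher and 3 lower by DESeq2. For the difference between strains, DESeq2 gave 1 XY-high and 2 higher and 2 lower XX-high genes, and 0 lower remained with replicate 1 or with only the groups compared. In the Df(1)/+ lines 5 XY-high genes were higher without libraries high in yolk protein. Yp3 turned with tra2 XY replicate 1, to -5.17 (adjusted p = 0.0203) from 0.64 in w1118/w+ tra2 XX against tra2 XY and to 5.63 (adjusted p = 0.00739) from -0.17 in tra2 XY against XY. The cause was not tested where the fit's own samples do not show it.

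Leaving out single libraries gave 10 to 15 XY-high and 100 to 154 XX-high genes in w1118, 19 to 24 and 115 to 182 in tra2 XX against XY, 15 to 23 and 130 to 173 in OreR, 3 to 6 and 2 to 16 in w1118 tra2 XX against tra2 XY, 4 to 17 and 7 to 81 in w1118/w+ tra2 XX, and 3 to 8 and 25 to 58 in tra2 XY against XY. The difference between w1118 and tra2 mutants gave 1 to 4 lower and 0 to 6 higher XY-high genes, and 6 to 21 higher and 0 to 5 lower XX-high genes. That between strains gave 0 to 0 and 0 to 1 XY-high genes, and 0 to 0 higher and 0 to 2 lower XX-high genes. The Df(1)/+ lines gave 31 to 35 lower and 1 to 5 higher XY-high genes, and 103 to 120 higher and 67 to 92 lower XX-high genes.

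The deviations of same-numbered replicates from their group means had correlations of -0.35 to 0.25. Replicates of other numbers were not compared, so that whether the number pairs them was not settled. The replicate block gave 20 XY-high and 147 XX-high genes in w1118 and 24 and 164 in tra2 XX against XY. It moved no other count of calls by over 1.5 times. Low counts limit the XY-high set, whose median higher level was 51.5 reads.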
